A study of Homo sapiens with 15 samples.

Results

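The genes described here belong to families of calcium-binding and calmodulin-binding proteins. They are the calmodulin genes CALM2 and CALM3, the calmodulin-like gene CALML3, PCP4, the parvalbumin gene PVALB, and the S100 genes S100A4, S100A6, S100A10 and S100A11. They were selected by gene symbol from a list that was drawn up with their measured levels in these libraries in view. All 9 were found among the 20468 RefSeq genes of both deposited tables. Their values are therefore given as a description. Calls among them are printed only beside the share of all tested genes called, or where an alternative changes them, and nothing is read from them.

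The study asked how bone marrow stromal cells alter gene expression of multiple myeloma (MM) cells, and it measured RNA with RNA-Seq in 2 established human MM lines, MM.1S and RPMI8226. Cells were kept for 48 h in monoculture (MONO), in the upper compartment of a transwell above HS5 cells, an established human stromal line (TSW), or in the lower chamber in direct contact with the HS5 cells (CO). MM.1S had 3 libraries per condition and RPMI8226 had 2, which makes 15 libraries. By the study's methods, the co-culture conditions had a trypsin step and RNA came from cells sorted as CD90-CD38+.

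Each condition of a line is thus a sorted population of 1 cell line, exposed to 1 stromal line for 1 duration. The methods describe MM cells both on the stromal layer and in the transwell above it, so TSW cells were above HS5 and MM cells together, and TSW and CO libraries may share wells and medium. The labels do not say whether the libraries of a condition came from separate cultures, so the spread between libraries may be technical. Trypsin treatment differs between MONO and the co-culture conditions in the methods, and its part in any difference from MONO cannot be told apart from that of the stromal cells.

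The deposited unit is log2(RPKM + 1). RPKM gives the paired-end tags (PETs) of a gene relative to the length of its exon model and to the size of the library. Whole PET numbers were calculated back from these values. In MM.1S the MONO libraries held 9008977, 19050772 and 13265498 PETs. The TSW libraries of MM.1S held 14260729, 15206212 and 13126692, and its CO libraries held 16101366, 15342283 and 13825779. In RPMI8226 the library sizes were 12479855 and 14806319 in MONO, 18538305 and 17929481 in TSW, and 16316717 and 18790792 in CO. Per library, 5174 to 6775 genes were listed at 0. Intervals given from PET counts cover counting error only. The tables of the 2 lines were normalized separately, so a level in one line set beside a level in the other is a description.

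Calmodulin binds calcium through EF-hand motifs and passes the signal on to kinases, the phosphatase calcineurin, plasma membrane calcium pumps and other targets. Separate calmodulin genes encode the same protein, while PCP4 lacks a calcium site of its own and binds calmodulin through an IQ motif, changing how fast calmodulin takes up and releases calcium. Parvalbumin buffers calcium, and S100 proteins are small EF-hand dimers that bind annexins, myosin and other partners, with most of their genes in a cluster on the long arm of chromosome 1.

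The cell line labels were compared with marker genes. All 10 plasma cell markers had at least 24.7 RPKM in every MM.1S library. In RPMI8226, 9 of them had at least 3.96 RPKM in every library, and SLAMF7 was the exception at 0.0184 to 0.104 RPKM. These markers differed between conditions. In RPMI8226, by the fits described below, 6 of the 9 tested were called higher and 2 lower both in TSW and in CO against MONO, beside 14.5% higher and 17.9% lower of all tested genes in TSW and 16.4% and 22.9% in CO. In MM.1S 3 of 10 were called higher and 2 lower in TSW, beside 6.48% and 4.16%, and 2 and 2 in CO, beside 7.13% and 4.65%. CD38, used for the sort, had 16.02 and 15.97 RPKM in MONO of RPMI8226, 49.6 and 42.0 RPKM in TSW, and 52.2 and 53.7 RPKM in CO. Among 4 B cell markers, MS4A1 was at 0 in every library and PAX5 reached at most 0.659 RPKM.

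Some libraries stood apart from their replicates. In MM.1S, 157 of 10153 tested genes in MONO replicate 1, the shallowest library, differed by over 2-fold from both other MONO libraries. The corresponding count was 50 in MONO replicate 2, 9 in MONO replicate 3, 3 to 5 in TSW and 4 to 7 in CO. MONO replicate 2 also had 84.2 RPKM of the pseudogene RPS14P3, against 2.20 to 5.83 in the other MM.1S libraries. It had 1.44 RPKM of the mitochondrial tRNA gene TRNN, against 362 to 587. Both TSW libraries of RPMI8226 had the same pattern, with 94.8 and 93.6 RPKM of RPS14P3 and 2.22 and 1.53 RPKM of TRNN. In the other RPMI8226 libraries RPS14P3 was between 4.78 and 6.44 RPKM and TRNN between 82.3 and 228 RPKM. In RPMI8226 this pattern coincided with the TSW condition, so the 2 cannot be told apart. Every pair of replicates differed by more than counting error, with a chi-square per degree of freedom between 4.07 and 47.7.

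Differences between conditions were fitted for all genes with limma on log2(RPKM + 1), within each line. Genes whose RPKM averaged 1 or more over the libraries of a line were tested. Calls required both an adjusted p (Benjamini-Hochberg) under 0.05 and a change of over 1.5-fold. The expression filter kept 10153 genes in MM.1S and 10319 in RPMI8226. It kept 7 of the 9 genes in MM.1S, without CALML3 and S100A4, and all 9 in RPMI8226. The comparisons of TSW and CO with MONO share the MONO libraries of a line.

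**Figure D1:**
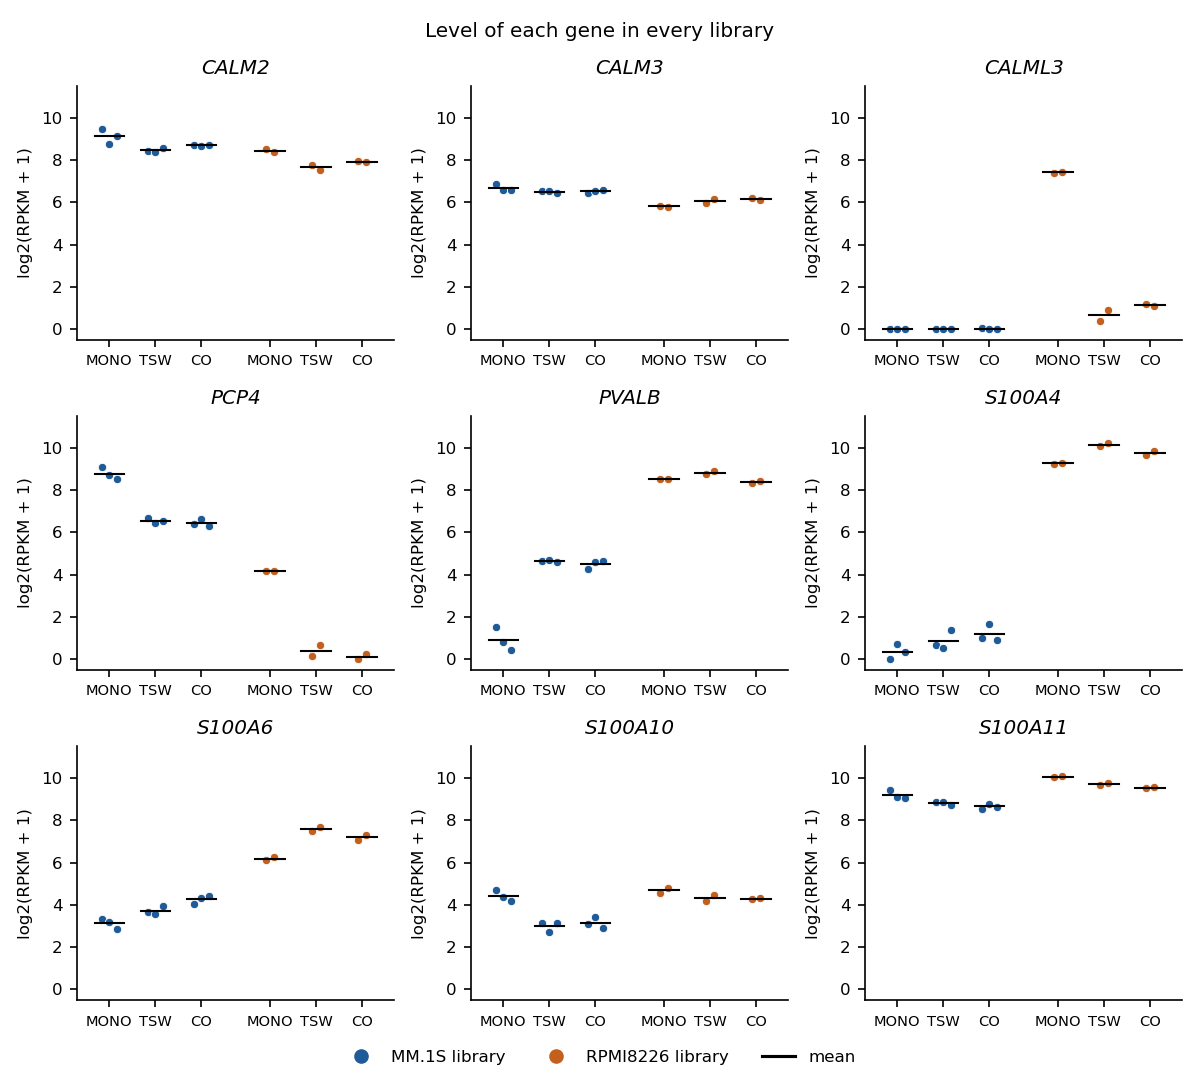
Level of each of the 9 genes in every library, as log2(RPKM + 1), by condition and cell line. Points are libraries and lines are means (3 libraries per condition in MM.1S, 2 in RPMI8226). CALML3 and PCP4 were high in RPMI8226 MONO and near 0 in TSW and CO, and PVALB in MM.1S was between 0.351 and 1.89 RPKM in MONO and between 18.4 and 25.0 RPKM in TSW and CO.

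**Figure D2:**
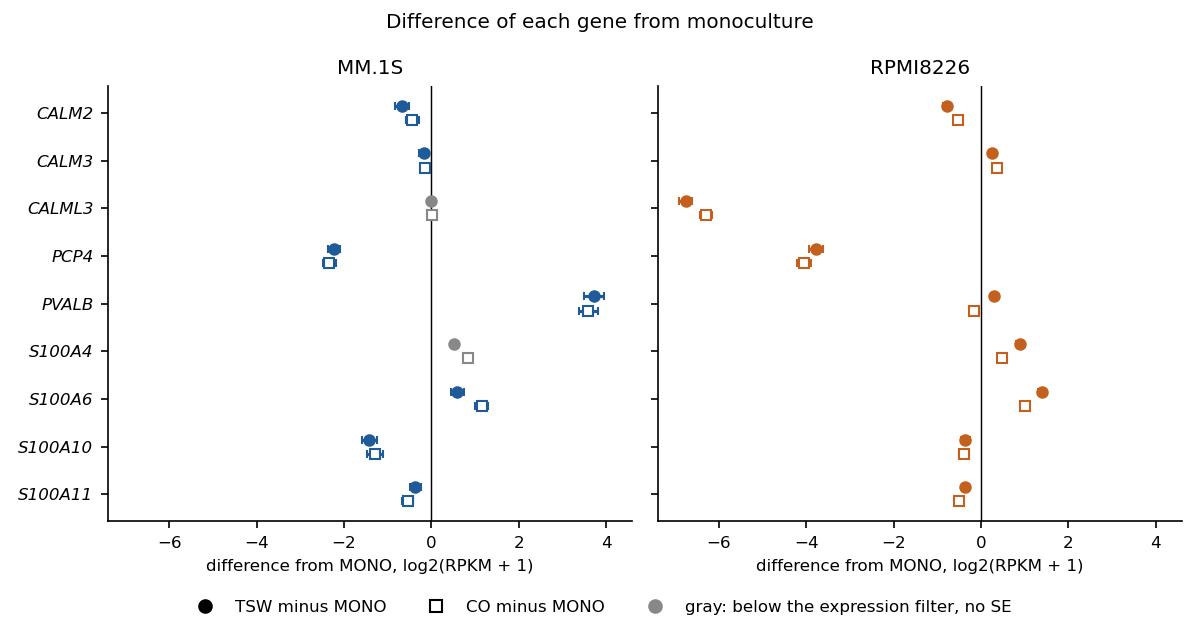
Difference of each gene from MONO on the log2(RPKM + 1) scale, as TSW minus MONO (circles) and CO minus MONO (squares). Bars are standard errors from limma, and gray points are genes under the expression filter in MM.1S, drawn without an error. The differences run from -6.76 for CALML3 in RPMI8226 TSW to 3.73 for PVALB in MM.1S TSW.

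CALM2 (Entrez gene 805, chromosome 2, 47160082 to 47176936 in GRCh38.p14) is a gene for calmodulin itself. In MM.1S its RPKM was 701, 429 and 568 in MONO, 341, 333 and 372 in TSW, and 417, 402 and 415 in CO. In RPMI8226 it was 366 and 326 in MONO, 218 and 184 in TSW, and 245 and 236 in CO. In both lines the order was MONO, CO, TSW, and no neighbouring conditions overlapped. The TSW minus MONO difference on the log2(RPKM + 1) scale was -0.67 (SE 0.16) in MM.1S and -0.79 (SE 0.09) in RPMI8226. The CO minus MONO difference was -0.43 (SE 0.16) in MM.1S and -0.52 (SE 0.09) in RPMI8226. The values in MM.1S depended on the MONO libraries. Without MONO replicate 1 the TSW difference was -0.50, under the fold threshold, and the CO difference was -0.26. Without MONO replicate 2 the CO difference was -0.62, over the threshold. In RPMI8226 the CO difference was -0.60 without MONO replicate 2. In bulk RNA, fewer cells of a type and less RNA per cell cannot be told apart, here and for every gene below.

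CALM3 (Entrez gene 808, chromosome 19, 46601074 to 46610782, plus strand) encodes the same protein. Its RPKM in MM.1S was between 93.1 and 115 in MONO, 84.8 and 91.6 in TSW, and 87.0 and 94.7 in CO. The TSW libraries lay below the MONO libraries, and CO overlapped both. The RPMI8226 values were 55.8 and 53.6 in MONO, 61.6 and 69.4 in TSW, and 73.3 and 67.8 in CO. There, TSW and CO overlapped and both lay above MONO, with log2 differences of 0.25 and 0.36 (SE 0.08). In MM.1S the differences were -0.17 and -0.14 (SE 0.10), and -0.08 and -0.04 without MONO replicate 1. On the map, the end of CALM3 overlaps the gene PTGIR, and the long noncoding gene LOC124904729, which is not among the deposited genes, lies within CALM3.

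Summed over CALM2 and CALM3, the RPKM in MM.1S was 816, 525 and 661 in MONO, 432, 424 and 457 in TSW, and 504, 495 and 509 in CO. In RPMI8226 the sum was 422 and 380 in MONO, 280 and 253 in TSW, and 319 and 304 in CO. The sums of TSW and CO lay below those of MONO in both lines. Of this sum of 2 genes, CALM2 supplied most in every library, with 78.4% to 85.9% in MM.1S and 72.6% to 86.8% in RPMI8226. In RPMI8226 the share of CALM3 was 13.2% and 14.1% in MONO, 22.04% and 27.4% in TSW, and 23.01% and 22.3% in CO.

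CALML3 (Entrez gene 810, chromosome 10, 5524961 to 5526771, plus strand) encodes a calmodulin-like protein best known from epithelial cells. In RPMI8226 its RPKM was 168 and 171 in MONO, 0.313 and 0.889 in TSW, and 1.24 and 1.12 in CO. The MONO libraries held 2894 and 3491 PETs of CALML3, the TSW libraries 8 and 22, and the CO libraries 28 and 29. The gene was high in MONO alone, and CO lay above TSW without overlap. The log2 difference from MONO was -6.76 in TSW and -6.29 in CO (SE 0.14). Per PET sequenced, MONO exceeded TSW 284-fold (95% interval 199 to 422) and CO 144-fold (111 to 191). CO exceeded TSW 1.97-fold (1.25 to 3.18). TSW replicate 2 held 22 of the 30 PETs in TSW. Without it MONO exceeded TSW 542-fold (275 to 1257), and CO exceeded TSW 3.76-fold (1.79 to 9.13). Without TSW replicate 1 MONO exceeded TSW 191-fold (126 to 305), and CO exceeded TSW 1.32-fold (0.796 to 2.27). The CO minus TSW log2 difference was 0.47 and was not called. It was 0.21 without TSW replicate 1, 0.73 without TSW replicate 2 and 1.002 with a pseudocount of 0.1, and the last 2 were called. In MM.1S, 8 of 9 libraries had no PET of CALML3, and CO replicate 1 had 1 PET (0.0450 RPKM).

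By mean RPKM over all libraries CALML3 ranked 1175 of 20468 genes in RPMI8226 and 15775 in MM.1S. The RPMI8226 rank pools conditions with means of 169 RPKM in MONO, 0.601 in TSW and 1.18 in CO. In RPMI8226 MONO its mean of 169 RPKM was above the mean of CALM3, 54.7 RPKM, and below that of CALM2, 346 RPKM. A RefSeq long noncoding gene, CALML3-AS1, overlaps CALML3 on the map and is not among the deposited genes. The strand setting of the count is not stated, so PETs of CALML3 and CALML3-AS1 cannot be told apart.

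PCP4 (Entrez gene 5121, chromosome 21, 39867438 to 39929392) binds calmodulin. In MM.1S its RPKM was 538, 416 and 374 in MONO, 102, 85.3 and 91.8 in TSW, and 84.4, 97.8 and 77.0 in CO. RPMI8226 libraries had 17.3 and 17.0 in MONO, 0.0970 and 0.602 in TSW, and 0 and 0.191 in CO. In both lines MONO was high and TSW and CO were low, without overlap, while TSW and CO overlapped each other. In MM.1S the log2 difference from MONO was -2.22 in TSW and -2.33 in CO (SE 0.14). The ratio of mean RPKM of MONO was 4.76 to TSW and 5.12 to CO.

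In RPMI8226 the log2 difference of PCP4 from MONO was -3.78 in TSW and -4.06 in CO (SE 0.16). The libraries held 260 PETs of PCP4 in MONO, 7 in TSW and 2 in CO. Per PET sequenced, MONO exceeded TSW 49.6-fold (95% interval 23.8 to 125) and CO 167-fold (45.8 to 1388). TSW exceeded CO 3.37-fold (0.642 to 33.2). Of the 7 PETs in TSW, 6 came from replicate 2, and both PETs in CO came from replicate 2. MONO exceeded TSW 177-fold (31.4 to 7004) without TSW replicate 2 and 28.5-fold (12.9 to 78.3) without TSW replicate 1, and it exceeded CO 89.5-fold (24.5 to 743) without CO replicate 1. The ratio of TSW to CO was 0.947, 5.87 and 1.80 in these 3 cases. PCP4 ranked 263 of 20468 genes in MM.1S and 6922 in RPMI8226 by mean RPKM over all libraries, which pools the high MONO and low TSW and CO levels. Without MONO replicate 1 of MM.1S its log2 differences there were -2.07 in TSW and -2.18 in CO, and without MONO replicate 2 they were -2.26 and -2.37.

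PVALB (Entrez gene 5816, chromosome 22, 36800703 to 36819499, minus strand) encodes parvalbumin, a calcium buffer of fast muscle and some neurons. MM.1S libraries had an RPKM of 1.89, 0.732 and 0.351 in MONO, 23.9, 25.0 and 23.4 in TSW, and 18.4, 23.6 and 23.9 in CO. The RPMI8226 libraries had 364 and 374 in MONO, 429 and 480 in TSW, and 323 and 341 in CO. In MM.1S the MONO libraries were low, and TSW and CO were high and overlapped. In RPMI8226 all libraries were high, in the order TSW, MONO, CO, with no overlap between neighbours.

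The log2 difference of PVALB from MONO in MM.1S was 3.73 in TSW and 3.59 in CO (SE 0.22). The MONO libraries of MM.1S held 11, 9 and 3 PETs of PVALB. Summed over libraries, 23 PETs in MONO stood against 663 in TSW and 638 in CO. Per PET sequenced, TSW exceeded MONO 28.0-fold (95% interval 18.5 to 44.4) and CO exceeded MONO 25.3-fold (16.7 to 40.2). Without MONO replicate 1 the log2 differences were 4.04 and 3.90, and without MONO replicate 2 they were 3.67 and 3.53. In RPMI8226 the log2 difference from MONO was 0.30 in TSW and -0.15 in CO (SE 0.07). Under median-of-ratios scaling, the CO difference in RPMI8226 was -0.04. The MONO level of PVALB was a mean of 0.992 RPKM in MM.1S and 369 RPKM in RPMI8226.

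S100A4 (Entrez gene 6275, chromosome 1, 153543621 to 153545806, minus strand) encodes a protein that binds nonmuscle myosin. The RPKM in MM.1S was 0, 0.651 and 0.267 in MONO, 0.622, 0.466 and 1.62 in TSW, and 0.991, 2.20 and 0.898 in CO. RPMI8226 had 611 and 617 in MONO, 1073 and 1212 in TSW, and 804 and 920 in CO. The gene was near 0 in every MM.1S library and among the most abundant genes of RPMI8226. There it ranked 61 of 20468 by mean RPKM over all libraries. In RPMI8226 the order was TSW, CO, MONO, without overlap, and the log2 difference from MONO was 0.89 in TSW and 0.49 in CO (SE 0.08). Under median-of-ratios scaling the CO difference was 0.60, over the fold threshold.

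In MM.1S S100A4 was under the expression filter. CO libraries lay above MONO libraries and TSW overlapped both. Summed over libraries, MM.1S had 9 PETs of S100A4 in MONO, 21 in TSW and 35 in CO. Per PET sequenced, CO exceeded MONO 3.55-fold (95% interval 1.67 to 8.40), and TSW exceeded MONO 2.26-fold (0.994 to 5.61). MONO replicate 2 held 7 of the 9 PETs in MONO, and without it the ratios were 8.61 (2.21 to 73.9) and 5.49 (1.34 to 48.3). TSW replicate 3 held 12 of the 21 PETs in TSW, and without it the ratio of TSW to MONO was 1.40 (0.493 to 3.99). CO replicate 2 held 19 of the 35 PETs in CO, and without it the ratio of CO to MONO was 2.45 (1.02 to 6.30). The end of S100A4 overlaps the neighbouring gene S100A5 on the map, and its start overlaps the long noncoding gene LOC101928034, which is not among the deposited genes. S100A5 itself had at most 0.0556 RPKM in MM.1S and 0.169 to 0.754 RPKM in RPMI8226.

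S100A6 (Entrez gene 6277, chromosome 1, 153534599 to 153535991, minus strand) encodes calcyclin. In MM.1S its RPKM was 9.10, 7.99 and 6.29 in MONO, 11.7, 10.8 and 14.3 in TSW, and 15.6, 19.4 and 20.5 in CO. Its RPKM in RPMI8226 was 69.7 and 74.8 in MONO, 178 and 203 in TSW, and 134 and 157 in CO. No conditions overlapped in either line. The highest condition was CO in MM.1S and TSW in RPMI8226, and MONO was lowest in both. On the map S100A6 lies within the long noncoding gene LOC124904423, which is not among the deposited genes, so their PETs cannot be told apart. In MM.1S the log2 difference from MONO was 0.60 in TSW and 1.15 in CO (SE 0.15). In RPMI8226 it was 1.39 in TSW and 0.998 in CO (SE 0.09).

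The TSW difference of S100A6 in MM.1S lay near the fold threshold. It was 0.47 without MONO replicate 3, 0.49 without TSW replicate 3 and 0.58 under median-of-ratios scaling, all under the threshold. The TSW call was also lost without the expression filter, where the difference is the same. Without MONO replicate 1 the differences from MONO were 0.70 in TSW and 1.26 in CO, and without MONO replicate 2 they were 0.62 and 1.18. The CO minus TSW difference was 0.56 in MM.1S and -0.39 in RPMI8226.

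S100A10 (Entrez gene 6281, chromosome 1, 151982915 to 151993859, minus strand) encodes the partner of annexin A2 in a cell surface complex that binds plasminogen. MM.1S libraries had 25.1, 20.1 and 17.4 RPKM in MONO, 7.91, 5.67 and 7.80 in TSW, and 7.65, 9.76 and 6.44 in CO. RPMI8226 cells had 22.8 and 27.0 in MONO, 17.2 and 21.3 in TSW, and 18.4 and 19.0 in CO. MONO was highest in both lines, and TSW and CO overlapped. The log2 difference from MONO was -1.42 in TSW and -1.29 in CO in MM.1S (SE 0.17), and -0.36 and -0.39 in RPMI8226 (SE 0.11). Without MONO replicate 1 the MM.1S differences were -1.29 and -1.15, and without MONO replicate 2 they were -1.44 and -1.31.

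S100A11 (Entrez gene 6282, chromosome 1, 152032506 to 152037004, minus strand) encodes calgizzarin, which binds annexin A1. The RPKM in MM.1S was 685, 551 and 531 in MONO, 470, 460 and 427 in TSW, and 367, 443 and 402 in CO. RPMI8226 values were 1056 and 1083 in MONO, 804 and 861 in TSW, and 740 and 757 in CO. MONO was highest in both lines, TSW and CO overlapped in MM.1S, and CO lay below TSW in RPMI8226. The log2 difference from MONO was -0.37 in TSW and -0.54 in CO in MM.1S (SE 0.13), and -0.36 and -0.51 in RPMI8226 (SE 0.07). In MM.1S the CO difference was -0.61 without MONO replicate 3 and -0.61 without CO replicate 2, over the fold threshold. The MM.1S differences without MONO replicate 1 were -0.26 in TSW and -0.42 in CO, and without MONO replicate 2 they were -0.42 and -0.58. S100A11 ranked 111 of 20468 genes in MM.1S and 60 in RPMI8226 by mean RPKM over all libraries. RefSeq lists 10 pseudogenes of S100A11 and 4 of CALM2, and none of them is among the deposited genes, so PETs from such copies cannot be told apart from those of the genes.

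The S100 genes in RPMI8226 differed in composition between conditions. The RPKM summed over all S100 genes was 1764 and 1807 in MONO, 2092 and 2319 in TSW, and 1718 and 1878 in CO. The sums of MONO and CO overlapped, and TSW was higher. S100A11 supplied 59.9% of the sum in both MONO libraries, 38.4% and 37.2% in TSW, and 43.1% and 40.3% in CO. S100A4 supplied 34.6% and 34.1% in MONO, 51.3% and 52.3% in TSW, and 46.8% and 49.0% in CO. In MM.1S the sum was 399 to 724 RPKM, of which S100A11 supplied 92.1% to 95.4% in every library, and S100A6 1.13% to 1.37% in MONO, 2.24% to 3.12% in TSW and 3.92% to 4.72% in CO.

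Calls of the 9 genes are counted here beside the share of all tested genes. In MM.1S TSW against MONO, PVALB and S100A6 were called higher, where 6.48% of all tested genes (658) were called higher. PCP4, S100A10 and CALM2 were called lower there, where 4.16% (422) were called lower. In MM.1S CO against MONO, PVALB and S100A6 were called higher beside 7.13% of all tested genes (724), and PCP4 and S100A10 lower beside 4.65% (472). In RPMI8226 TSW against MONO, S100A4 and S100A6 were called higher beside 14.5% (1500), and CALML3, PCP4 and CALM2 lower beside 17.9% (1852). In RPMI8226 CO against MONO, S100A6 was called higher beside 16.4% (1693), and CALML3 and PCP4 lower beside 22.9% (2363). Under median-of-ratios scaling, the all-gene counts in RPMI8226 were 1710 higher and 1538 lower in TSW against MONO, 1994 and 1925 in CO against MONO, and 231 and 198 in CO against TSW. Between CO and TSW limma called 0 of the 7 genes tested in MM.1S and 0 of the 9 in RPMI8226, as did voom on the PETs. CALML3 was called higher there in RPMI8226 with a pseudocount of 0.1, and its difference was 0.73 without TSW replicate 2. Of all tested genes, 0.374% (38) were called higher and 0.0394% (4) lower between CO and TSW in MM.1S. In RPMI8226, 1.9% (196) were called higher and 2.39% (247) lower. Since the genes were chosen with these values known, nothing is read from the counts.

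The 4 S100 genes lie on chromosome 1 in 2 groups. S100A10 and S100A11 are 38646 bases apart with 0 protein-coding genes between them. S100A6 and S100A4 are 7629 bases apart, with 1 protein-coding gene between them, S100A5, which overlaps the end of S100A4. Between S100A11 and S100A6 there are 1497594 bases with 52 protein-coding genes. By mean RPKM, both genes of the first pair were highest in MONO in both lines, and both genes of the second pair were lowest in MONO in both lines. The exception to a full separation was S100A4 in MM.1S, where MONO and TSW overlapped.

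Promoter sequences in RefSeq (GRCh38.p14) were found for 7 of the 9 genes, without PCP4 and CALM2. The 250 bases before the start of 4 genes are printed for the strand of the gene, since the level of these genes differed most between conditions or lines among the 7. They are CALML3 (chr10:5524711-5524960, plus strand), PVALB (chr22:36819500-36819749, minus strand, its outermost start), S100A4 (chr1:153545807-153546056, minus strand) and S100A6 (chr1:153535992-153536241, minus strand). Capitals mark matches to any of 7 motifs searched on both strands.
CALML3: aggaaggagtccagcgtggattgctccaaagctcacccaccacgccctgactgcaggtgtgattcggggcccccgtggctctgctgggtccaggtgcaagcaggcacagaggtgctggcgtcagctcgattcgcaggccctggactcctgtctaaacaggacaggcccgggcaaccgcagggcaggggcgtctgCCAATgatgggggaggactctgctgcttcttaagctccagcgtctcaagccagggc
PVALB: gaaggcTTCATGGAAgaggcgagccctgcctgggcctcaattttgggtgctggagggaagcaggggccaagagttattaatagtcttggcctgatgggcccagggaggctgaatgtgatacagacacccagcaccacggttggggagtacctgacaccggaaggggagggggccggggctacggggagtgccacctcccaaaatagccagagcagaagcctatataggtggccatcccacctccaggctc
S100A4: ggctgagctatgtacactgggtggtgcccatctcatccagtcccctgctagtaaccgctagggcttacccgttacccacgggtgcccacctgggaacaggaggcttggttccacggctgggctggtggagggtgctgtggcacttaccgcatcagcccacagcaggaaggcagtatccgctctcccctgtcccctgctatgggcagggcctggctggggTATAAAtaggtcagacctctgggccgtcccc
S100A6: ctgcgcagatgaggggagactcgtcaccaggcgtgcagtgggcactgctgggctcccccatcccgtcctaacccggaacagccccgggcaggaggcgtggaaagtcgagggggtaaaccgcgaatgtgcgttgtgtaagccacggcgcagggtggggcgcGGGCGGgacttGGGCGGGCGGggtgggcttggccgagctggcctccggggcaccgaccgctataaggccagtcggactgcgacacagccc

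CALML3 held 1 CCAAT box, whose letters are CCAAT, at 56 to 52 bases before the start, as did 32.0% of all 35116 promoters scanned. PVALB held 1 STAT element, TTCNNNGAA with any base at N, at 244 to 236 bases before the start, and 6.57% of all promoters held one. A second PVALB start in RefSeq (chr22:36817036-36817285 before it) held 0 matches to the 7 motifs. S100A4 held 1 TATA box, with the letters TATAAA, at 31 to 26 bases before the start, as did 10.7% of all promoters. S100A6 held 3 GC boxes, with the letters GGGCGG, of which 2 overlap, and 42.6% of all promoters held a GC box. S100A10 and S100A11 each held 1 GC box. CALM3 held 2 before each of its 2 RefSeq starts, at 46602069 and 46602072, which lie inside the gene on the map. The AP-1 element (letters TGANTCA, in 6.57% of all promoters), the E-box (letters CACGTG, in 6.34%) and the cAMP response element (letters TGACGTCA, in 1.65%) had no match in these windows. A match is a description of the letters and was not tested for any function.

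Among the 11075 genes that averaged 1 RPKM or more in either line, the genes most like CALML3, PCP4 and PVALB were sought. Likeness was the root mean square difference over the 4 log2 differences of TSW and CO from MONO in both lines. For PCP4 the nearest gene was TNFRSF17, at 0.29, followed by WNT10A at 1.10 and LIME1 at 1.14. TNFRSF17 had means of 173, 48.2 and 37.9 RPKM in MONO, TSW and CO of MM.1S, and of 70.9, 5.42 and 4.05 RPKM in RPMI8226. PCP4 had means of 17.2, 0.349 and 0.0957 RPKM in RPMI8226, so its differences there depend on the pseudocount of 1. By voom they were -5.81 in TSW and -7.23 in CO, against -3.78 and -4.06 on the scale used. Likeness was measured on the log2(RPKM + 1) scale alone. For CALML3 no gene was as near. HMOX1 was at 1.56, IGKV1D-8 at 2.36 and PCP4 at 2.47. HMOX1 had means of 145, 6.06 and 4.87 RPKM in MONO, TSW and CO of RPMI8226, and of 52.7, 62.7 and 117 RPKM in MM.1S. For PVALB the nearest genes were TEX19 at 0.68, LGALS17A at 0.99 and JAK3 at 1.18. In RPMI8226, where PVALB was at 323 to 480 RPKM, LGALS17A had means of at most 0.120 RPKM and JAK3 of at most 0.0334 RPKM, so their differences there are near 0 at a level near 0. TEX19 had means of 1.63, 21.1 and 21.9 RPKM in MM.1S and of 11.7, 23.0 and 20.4 RPKM in RPMI8226.

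HS5 cells express many genes that MM cells lack, so 39 stromal marker genes were examined in the sorted cells. Over the 33 markers with a mean under 1 RPKM in MONO, the summed RPKM in MM.1S was 3.31, 3.84 and 3.75 in MONO, 2.56, 3.33 and 3.26 in TSW, and 147, 161 and 135 in CO. In RPMI8226 it was 1.503 and 1.80 in MONO, 2.39 and 2.11 in TSW, and 89.7 and 128 in CO. The sums were high in CO alone, although cells were sorted as CD90-CD38+. The study's methods note a low level of HS5 cells among the cells sorted from the lower chamber, and stromal signature genes were left out of its analyses. The counts over all tested genes here keep such genes. THY1, which encodes CD90, had at most 0.0629 RPKM in MONO and 0.453 to 0.570 RPKM in CO of MM.1S, and at most 0.0669 RPKM in MONO and 0.0767 and 0.111 RPKM in CO of RPMI8226. Of these 33 markers MMP1 was the most abundant in every CO library, with 41.0 to 46.9 RPKM in MM.1S and 35.1 and 53.2 RPKM in RPMI8226. Of the 39 markers, 13 in MM.1S and 11 in RPMI8226 were above 0 in every CO library and at 0 in every other library. They included MMP1, TFPI2, COL1A2, COL3A1 and MMP2. The share of all genes with this pattern was not counted. Over all 39 markers the sum was 34.9 to 39.7 RPKM in MONO, 24.8 to 25.6 in TSW and 175 to 207 in CO of MM.1S, with CAV1 the most abundant in MONO and TSW. FN1 was the most abundant marker in every RPMI8226 library, with 3990 and 4310 RPKM in MONO, and the sum there was 4052 and 4376 in MONO, 1711 and 1997 in TSW, and 2137 and 2340 in CO.

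These markers bear on the S100 genes measured in CO. S100A16 was listed at 0 in every MONO and TSW library of both lines and at 0.271, 0.691 and 0.631 RPKM in CO of MM.1S, and at 0.382 and 0.664 RPKM in CO of RPMI8226. It moved with the stromal markers, and their part in the CO values of S100A16, S100A6 and S100A4 was not tested. In TSW, where the marker sums were at most 3.33 RPKM in MM.1S and 2.39 RPKM in RPMI8226, S100A6 was above MONO in both lines, and S100A4 was above MONO in RPMI8226.

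**Figure D3:**
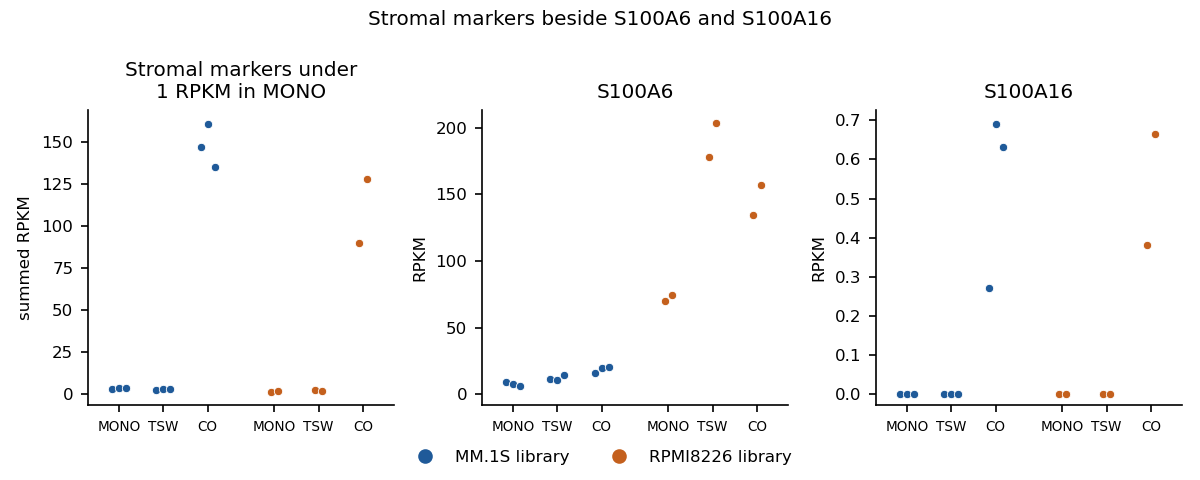
Summed RPKM of the 33 stromal markers under 1 RPKM in MONO (left), RPKM of S100A6 (middle) and RPKM of S100A16 (right) in every library, by condition and line. The marker sums were high in CO libraries alone and S100A16 was above 0 in CO libraries alone, while S100A6 was above MONO in both TSW and CO.

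Genes around the 9 were taken from 5 lists of 108 genes in all, with no overlap with the 9: 16 other S100 genes, 6 relatives of calmodulin and PCP4, 38 other EF-hand proteins, 34 calmodulin targets and 14 S100 partners. In each line 64 of the 108 passed the expression filter. In MM.1S TSW against MONO, limma called 8 higher (12.5%) and 2 lower (3.12%), beside 6.48% and 4.16% of all tested genes, with a median log2 fold change of -0.04 beside 0.01. In MM.1S CO against MONO it called 9 higher (14.1%) and 3 lower (4.69%), beside 7.13% and 4.65%, with a median of -0.04 beside 0.01. These counts without MONO replicate 1 were 7 higher and 5 lower in TSW and 7 higher and 4 lower in CO, and without MONO replicate 2 they were 9 higher and 3 lower in each. Without TSW replicate 3 they were 7 higher and 1 lower in TSW, and without CO replicate 1 they were 8 higher and 1 lower in CO. In RPMI8226 TSW it called 12 higher (18.8%) and 5 lower (7.81%), beside 14.5% and 17.9% (median -0.11 beside -0.08). In RPMI8226 CO it called 11 higher (17.2%) and 7 lower (10.9%), beside 16.4% and 22.9% (median 0.00 beside -0.09). Voom on the PETs called 12 higher and 11 lower there, beside 1963 and 2726 of all tested genes. Between CO and TSW limma called 0 of the 64 in MM.1S, beside 0.374% of all tested genes called higher and 0.0394% lower. There, 0 of the 64 had an unadjusted p under 0.05 by limma, beside 450 of all 10153 tested genes. Voom on the PETs also called 0 of the 64, beside 45 of all tested genes. In RPMI8226 limma called ANXA1 alone, higher (1.56%), beside 1.9% higher and 2.39% lower.

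**Figure D4:**
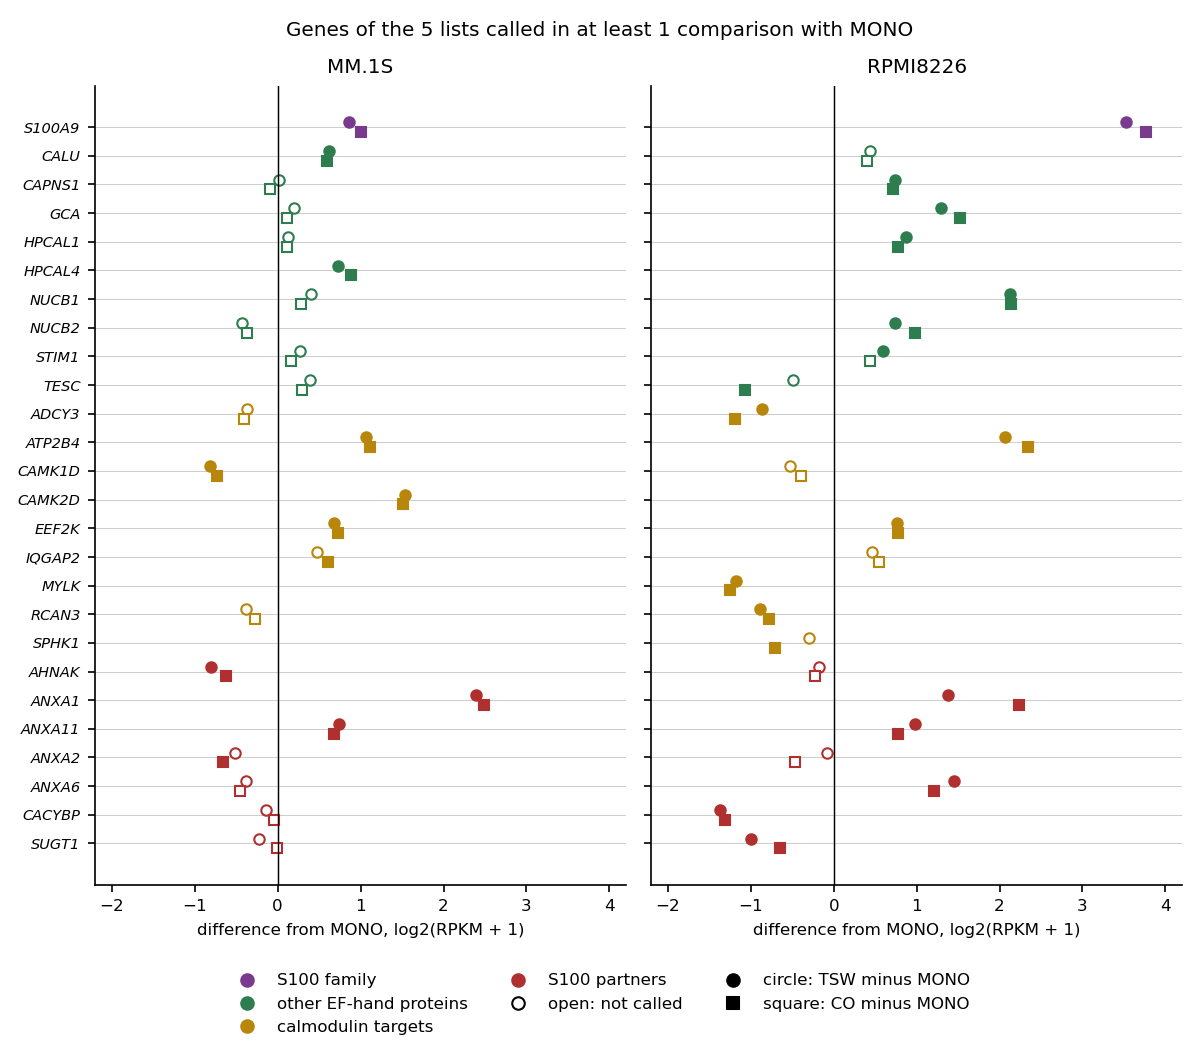
Difference from MONO on the log2(RPKM + 1) scale for each gene of the 5 lists called in at least 1 comparison with MONO, in both lines. Circles are TSW and squares are CO, filled where called and open where not, colored by list. Genes without a point in a line were under the expression filter there. S100A9 in RPMI8226 had the largest difference, at 3.52 in TSW and 3.77 in CO.

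Of the 16 other S100 genes, 2 were tested in MM.1S and 3 in RPMI8226, and S100A9 alone was called, higher in TSW and in CO of both lines. This is 1 of 2 tested in MM.1S, beside 6.48% of all tested genes in TSW and 7.13% in CO, and 1 of 3 (33.3%) in RPMI8226, beside 14.5% and 16.4%. S100A9 forms the inflammatory protein calprotectin with S100A8. In RPMI8226 its RPKM was 0.278 and 0.585 in MONO, 14.8 and 15.9 in TSW, and 16.7 and 20.4 in CO. In MM.1S it was 2.31, 0.819 and 1.05 in MONO, 2.80, 3.42 and 3.43 in TSW, and 4.52, 3.95 and 2.63 in CO. MONO was lowest in both lines without overlap. In RPMI8226 the log2 fold change was 3.52 in TSW (adjusted p 7.79e-09) and 3.77 in CO (adjusted p 4.10e-09), and by voom on the PETs 5.003 and 5.28. In MM.1S it was 0.86 in TSW (adjusted p 0.0137) and 1.004 in CO (adjusted p 0.00605), and by voom 1.41 and 1.598. The TSW call in MM.1S was lost without TSW replicate 2, without TSW replicate 3 and without the expression filter, with an adjusted p of up to 0.0833 over all alternatives. S100A8 was at 0 in all MM.1S libraries and at most 0.554 RPKM in RPMI8226.

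The most abundant of the other S100 genes besides S100A9 were S100Z, at 0.952 to 2.52 RPKM over all libraries, and S100A13, at 0.216 to 1.57 RPKM. limma called neither in any comparison in which it was tested. In RPMI8226 CO against MONO, S100Z (-0.44) was called lower with a pseudocount of 0.1 (-0.65) and by voom (-0.68), and in MM.1S TSW against MONO S100A13 was called lower without the expression filter (-0.81). S100A7, S100A7A, S100A12 and S100B were at 0 in every library. Of the 6 relatives of calmodulin and PCP4, NRGN and CALML4 were tested in each line, and limma called neither. In RPMI8226 both had an unadjusted p under 0.05 by limma in CO against MONO, beside 7605 of the 10319 tested genes. In TSW against MONO 1 had, beside 7234. Neither had in the other comparisons, beside 4095 of 10153 tested genes in MM.1S TSW against MONO and 4467 in CO against MONO. Between CO and TSW the counts of all tested genes were 450 in MM.1S and 4169 in RPMI8226. NRGN in RPMI8226 CO against MONO (-0.52) was called lower with a pseudocount of 0.1 (-0.61) and by voom (-0.62). NRGN, which binds calmodulin through an IQ motif as PCP4 does, had 3.82 to 9.39 RPKM over all libraries, and CALML4 had 1.86 to 4.88 RPKM. CALML5, GAP43 and PCP4L1 were at 0 in every library, and CALML6 was at 0 in MM.1S and at most 0.166 RPKM in RPMI8226.

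Of the other EF-hand proteins, 24 were tested in MM.1S, with 2 called higher (8.33%) in each comparison with MONO, beside 6.48% of all tested genes in TSW and 7.13% in CO, and 0 lower. They were CALU, a protein of the endoplasmic reticulum, with 0.61 in TSW and 0.59 in CO on the log2 scale (adjusted p 0.00361 and 0.00428), and HPCAL4, with 0.73 and 0.88 (adjusted p 0.000205 and 4.99e-05), and 1.18 and 1.39 by voom. The calls of CALU were lost without MONO replicate 1, which had the lowest CALU level of the MONO libraries, 36.4 RPKM against 49.1 and 50.5, and its lowest log2 fold changes over the alternatives were 0.47 and 0.44. The CO call was also lost without CO replicate 3 and under median-of-ratios scaling. In RPMI8226, 6 of 23 (26.1%) were called higher in TSW and 0 lower, beside 14.5% and 17.9% of all tested genes. In CO 5 (21.7%) were called higher and 1 (4.35%) lower, beside 16.4% and 22.9%. NUCB1, a calcium-binding protein of the Golgi apparatus, had 27.2 and 29.0 RPKM in MONO, 119 and 134 in TSW, and 127 and 127 in CO. Its log2 fold change was 2.13 in both TSW (adjusted p 7.27e-09) and CO (adjusted p 5.62e-09), and all TSW and CO libraries were above MONO.

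GCA, grancalcin, was higher in RPMI8226 with log2 fold changes of 1.29 in TSW and 1.53 in CO (adjusted p 2.27e-06 and 4.65e-07). HPCAL1, CAPNS1 and NUCB2 were called higher in both TSW and CO, with log2 fold changes from 0.71 to 0.98. STIM1 was called higher in TSW alone (0.60), a call lost without TSW replicate 2 (0.56), and was named after its values were seen. TESC, an inhibitor of calcineurin, was called lower in CO (-1.06, adjusted p 5.10e-05), with 15.2 and 14.7 RPKM in MONO, 8.59 and 12.5 in TSW, and 6.99 and 6.27 in CO. The most abundant gene of the list was LCP1, which bundles actin, with 298 to 429 RPKM in MM.1S and 297 to 361 RPKM in RPMI8226. It was not called.

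Among calmodulin targets, ATP2B4, a plasma membrane calcium pump, was called higher in both lines. In RPMI8226 its RPKM was 13.83 and 15.3 in MONO, 61.8 and 66.2 in TSW, and 76.8 and 79.1 in CO. In MM.1S it was 5.85, 10.2 and 10.8 in MONO, 20.3, 18.6 and 18.8 in TSW, and 21.6, 18.7 and 19.8 in CO. All TSW and CO libraries lay above MONO in both lines. The log2 fold change in RPMI8226 was 2.06 in TSW and 2.35 in CO (adjusted p 8.38e-09 and 3.28e-09). In MM.1S it was 1.06 and 1.12 (adjusted p 0.00142 and 0.00103). EEF2K, the calmodulin-dependent kinase of elongation factor 2, was also called higher in both lines, with log2 fold changes of 0.67 and 0.73 in MM.1S and 0.77 and 0.78 in RPMI8226.

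CAMK2D, a calmodulin-dependent kinase, had 4.17 to 7.50 RPKM in MONO, 19.0 to 19.8 in TSW and 17.1 to 21.8 in CO of MM.1S. It was called higher in TSW (1.54, adjusted p 8.72e-05) and CO (1.51, adjusted p 9.48e-05), and had at most 0.108 RPKM in RPMI8226. CAMK1D was called lower in MM.1S in TSW (-0.81) and CO (-0.73). IQGAP2 was called higher in CO of MM.1S (0.61), a call lost without MONO replicate 1, CO replicate 1 or CO replicate 3 and without the expression filter, with 0.36 the lowest value over the alternatives. In RPMI8226 the myosin light chain kinase gene MYLK was called lower in TSW (-1.17) and CO (-1.25), ADCY3 (-0.87 and -1.19) and RCAN3 (-0.89 and -0.78, by voom -1.46 and -1.24) likewise. SPHK1 was called lower in CO alone (-0.70), and was named after its values were seen. PPP3R1, among the most abundant targets, had 39.1 to 57.1 RPKM over all libraries and was not called. Of 23 targets tested in MM.1S, 3 were called higher and 1 (4.35%) lower in TSW, beside 6.48% and 4.16% of all tested genes, and 4 (17.4%) and 1 in CO, beside 7.13% and 4.65%. Of 22 tested in RPMI8226, 2 (9.09%) were called higher and 3 (13.6%) lower in TSW, beside 14.5% and 17.9%, and 2 and 4 (18.2%) in CO, beside 16.4% and 22.9%.

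Among S100 partners, ANXA1, the annexin that binds S100A11, was called higher in both lines. MM.1S libraries held 1.54, 0.408 and 0.921 RPKM in MONO, 9.23, 10.3 and 7.53 in TSW, and 9.03, 11.2 and 8.996 in CO. RPMI8226 libraries held 0.133 and 0.0750 RPKM in MONO, 1.98 and 1.77 in TSW, and 3.85 and 4.58 in CO. The order in RPMI8226 was CO, TSW, MONO without overlap. The log2 fold change from MONO in MM.1S was 2.39 in TSW and 2.49 in CO (adjusted p 8.99e-06 and 6.12e-06). By voom on the PETs, without a pseudocount of 1, the values were 3.55 and 3.66. In RPMI8226 the log2 fold change was 1.38 in TSW and 2.24 in CO (adjusted p 2.17e-06 and 5.09e-08), by voom 3.98 and 5.15, and 0.86 between CO and TSW (adjusted p 0.000738). The summed stromal markers were 2.39 and 2.11 RPKM in TSW and 89.7 and 128 RPKM in CO of RPMI8226, and their part in the difference of ANXA1 between CO and TSW was not tested.

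ANXA2, which binds S100A10, had 41.9, 35.2 and 34.4 RPKM in MONO, 28.4, 25.4 and 23.4 in TSW, and 20.4, 29.0 and 20.7 in CO of MM.1S. It was called lower in CO against MONO (-0.66, adjusted p 0.00572), and the call was lost without MONO replicate 1 or CO replicate 1, where the value nearest 0 was -0.57. ANXA11 was called higher in both lines, with log2 fold changes from 0.68 to 0.98. ANXA6 was called higher in RPMI8226 in TSW (1.45, adjusted p 7.72e-08) and CO (1.21, adjusted p 1.83e-07), with 20.1 and 21.0 RPKM in MONO, 55.4 and 60.6 in TSW, and 49.1 and 48.6 in CO. In MM.1S ANXA6 was not called.

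CACYBP, which binds S100A6, was called lower in RPMI8226 in TSW (-1.37, adjusted p 7.98e-07) and CO (-1.31, adjusted p 7.32e-07). Its RPKM there was 101 and 90.4 in MONO, 39.4 and 33.7 in TSW, and 40.2 and 35.6 in CO. SUGT1 was called lower in the same comparisons (-1.0002 and -0.65), and its CO call was lost under median-of-ratios scaling (-0.54). AHNAK was called lower in MM.1S in TSW (-0.81, adjusted p 0.0153) and CO (-0.63, adjusted p 0.0401), where MONO and CO overlapped. The CO call of AHNAK was lost without the expression filter and in 7 of 9 fits that each left out 1 library, and held without MONO replicate 1 and without CO replicate 3. Its TSW call was lost without the expression filter and without TSW replicate 3. Over all alternatives the highest adjusted p was 0.154 in CO and 0.0865 in TSW. The most abundant partners were BSG and MYH9, which were not called. Of 13 partners tested in MM.1S, 2 (15.4%) were called higher and 1 (7.69%) lower in TSW, beside 6.48% and 4.16% of all tested genes, and 2 and 2 in CO, beside 7.13% and 4.65%. Of 14 tested in RPMI8226, 3 (21.4%) were called higher and 2 (14.3%) lower in each comparison with MONO, beside 14.5% and 17.9% in TSW and 16.4% and 22.9% in CO.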

How the data were processed

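RNA-Seq values of 15 libraries were read from 1 table per cell line. The authors aligned paired-end reads to hg38 with Subread, counted them on RefSeq genes with featureCounts and deposited log2 values, which are log2(RPKM + 1) with an offset of 0.0001. The offset was subtracted. The common step of each gene's values across libraries gave its PETs, and 100% of nonzero results were whole within 0.05.

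Each line was fitted with limma 3.58.1 in R 4.3.3 (lmFit, contrasts.fit, eBayes with a trend), with its 3 conditions together and no covariate. The expression filter was an average RPKM of 1 or more, and calls needed a Benjamini-Hochberg adjusted p under 0.05, taken over all tested genes of the line, with more than 1.5-fold change. Ratios per PET have exact 95% binomial intervals. Other work used Python 3.11.15, numpy 2.4.6, pandas 2.3.3, scipy 1.17.1 and matplotlib 3.10.9.

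The members and lists were chosen with earlier results of these data known. List genes named are the 4 with the largest absolute log2 fold change among those called per list and comparison, and the 3 with the highest mean RPKM. S100A5 is named as a neighbour, S100A8 as the partner of S100A9, and S100A7, S100A7A, S100A12, S100B, CALML5, GAP43 and PCP4L1 for their absence. Other exceptions are stated. Alternatives changed the pseudocount (0.1), the expression filter (none), the scaling (median of ratios), the pairing (replicate number as a block) and the libraries (each left out in turn). A voom fit on the PETs was chosen after seeing the data. The ATAC part of the study is not in the tables.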

Additional observations from a re-analysis of the deposited data

Results flagged for a closer look

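For 43 genes, namely the 9 members and genes named from the lists, the log2 differences of the 2 lines were compared, of which 36 averaged 1 RPKM or more in both lines. Over TSW against MONO, CO against MONO and CO against TSW, these 36 genes gave 8 cases of opposite directions. In these, every library of one line moved one way and every library of the other line the opposite way. The share of all genes with such cases was not counted, so nothing is read from their number. Each value below is the log2 difference in MM.1S minus that in RPMI8226. None of these differences between lines was tested.

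PVALB in CO against MONO had the largest gap, 3.75 (3.59 in MM.1S and -0.15 in RPMI8226). S100A6 in CO against TSW had 0.95 (0.56 and -0.39), and CALM3 in TSW against MONO had -0.43 (-0.17 and 0.25). Among the annexins, ANXA6 had -1.83 in TSW against MONO (-0.38 and 1.45) and -1.66 in CO against MONO (-0.45 and 1.21). Of the other EF-hand genes, NUCB2 had -1.17 (-0.43 and 0.74) and TESC had 0.87 (0.39 and -0.49), both in TSW against MONO. The calmodulin target IQGAP1 in CO against TSW had -0.11 (-0.05 and 0.07).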

How the results depend on the processing

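No log2 difference of the 9 genes that was called against MONO changed sign with a pseudocount of 0.1, with median-of-ratios scaling or with voom. Signs changed for S100A10 in CO against TSW, which was not called, when 1 library was left out (-0.01 at the lowest in MM.1S, 0.11 at the highest in RPMI8226). With a pseudocount of 0.1, 42 of 54 values moved by less than 1 SD between replicates, with median-of-ratios scaling 47 of 54, and with voom 40 of 48. Among those that moved further were the largest differences from MONO. With the pseudocount of 0.1 and by voom, PCP4 in RPMI8226 CO went from -4.06 to -6.66 and -7.23. CALML3 in RPMI8226 TSW went from -6.76 to -8.05 and -8.28, and PVALB in MM.1S TSW from 3.73 to 4.74 and 4.91. Calls of CALM2, CALML3, S100A6 and S100A11 changed when 1 library was left out. Without CO replicate 2 of RPMI8226 no PET of PCP4 was left in CO, so its ratios per PET have no value there.

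Total counts against MONO stayed within 1.5 times those reported under every alternative. Lower calls of list genes did not. They went from 2 to 5 without MONO replicate 1 and to 1 without TSW replicate 3 in MM.1S TSW, from 3 to 1 without CO replicate 1 in MM.1S CO, and from 7 to 11 by voom in RPMI8226 CO. Total counts between CO and TSW also moved further. In MM.1S, 42 genes were called there and 120 without the expression filter, of which 2 were list genes, S100A16 and RCN3, against 0 with the filter. In RPMI8226, 443 genes were called, 249 without the filter, 672 by voom, and 319 to 718 with 1 library left out, the highest without TSW replicate 1. By direction, the lower calls in MM.1S were 4, and 2 to 8 with 1 library left out (8 without MONO replicate 1, 7 without MONO replicate 2). The higher calls in RPMI8226 were 196, and 132 to 383 with 1 library left out (383 without TSW replicate 1). Of the list genes 1 was called there, 2 with a pseudocount of 0.1, 3 by voom and 1 to 3 with 1 library left out, of which only the fit without TSW replicate 1 had more than 1. TESC joined ANXA1 with the pseudocount, by voom and without TSW replicate 1, SPHK1 by voom and MICU2 without TSW replicate 1. S100A16, RCN3, SPHK1 and MICU2 are named here after their values were seen. Without the filter more genes are tested. Otherwise the cause was not tested. Where 1 library of a condition is left in RPMI8226, it is assumed to vary like the other groups.

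Of 58 calls of list genes over all comparisons, 49 held under every alternative and 9 were lost under at least 1, while none reversed. Some list genes were called against MONO under alternatives only. In MM.1S CO, CAMK2G (-0.575) was called lower with a pseudocount of 0.1 (-0.69) and by voom (-0.69). In RPMI8226, PDE1B was called higher with a pseudocount of 0.1 in TSW (0.71 against 0.51) and CO (0.78 against 0.56). CAMK2G and PDE1B are named here after their values were seen. With replicate number as a block, the counts between CO and TSW were 40 in MM.1S and 448 in RPMI8226. Libraries with the same number correlated in their deviations between -0.38 and 0.286 in MM.1S. In RPMI8226, with 2 numbers, the correlations were 0.271, 0.164 and 0.17. The labels do not say what a number shares, so the block is an alternative only, and it changed no call of the 9 genes or of the list genes.

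Depth limits CALML3 and PCP4 in TSW and CO of RPMI8226, PVALB in MONO of MM.1S and S100A4 in MM.1S, which rest on 57 PETs or fewer per condition.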
